A study of Mus musculus with 6 samples.

Results

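The genes described here encode actins, actin-related proteins, alpha-actinins, tropomyosins, calponins, transgelins, myosin chains and tubulins, and they were chosen by gene symbol alone, with each array probe taken separately. The rule took 126 of the 45281 probes on the array, carrying 68 of its 31508 gene symbols. The samples were cortical bone tubes, the shafts of tibia and femur of 3 month old C57BL6 mice, freed of muscle, epiphyses, marrow and surface cells by flushing and by digestion with collagenase and trypsin. Tubes were left untreated (control) or given 250 nM Pth 1-34, a fragment of parathyroid hormone, for 24 hours *ex vivo*, and the comparison asks how the hormone alters gene expression of osteocytes in their own matrix. Each group had 3 arrays, each made from a preparation that pooled the bones of several mice. The labels do not say whether the 3 preparations of a group came from separate sets of mice, so the p-values measure the spread between these preparations.

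Actin polymerizes into filaments that give the osteocyte cell body and its dendrites their shape, and tropomyosins, alpha-actinins and calponins lie along or between those filaments. The Arp2/3 complex starts new branches on a filament, and myosin II, built of heavy and light chains, pulls filaments past each other. Microtubules are built from dimers of alpha and beta tubulin and carry transport along the dendrites. *Actb*, the gene of beta-actin, is also widely used as the reference gene for RT-PCR, and the study used it so.

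Values are log2 signals after background correction and quantile normalization, and array values are given in the order of replicates 1, 2 and 3. A probe was above background on an array if its detection p was under 0.05, and it was tested if this held on at least 3 of the 6 arrays. A probe was called if limma's p, adjusted over all 16214 probes tested, was under 0.05. Levels of different probes cannot be set against each other, because probes bind with different strength. Between 34.2% and 38.4% of all probes were above background on an array. Of 8 osteocyte marker probes, 6 were tested and 4 were above background on all 6 arrays. That list was drawn up with *Kera*, which the paper uses as an osteoblast marker, and with the early osteocyte marker *Gp38* (*Pdpn*). RNA of other cells was also present in the control tubes: 13 of 14 neutrophil marker probes and 12 of 19 red cell marker probes were tested, and their lists had mean log2 signals of 10.58 to 10.65 and 10.73 to 10.75 on the control arrays. With PTH those means were 9.78 to 9.83 and 9.06 to 9.15. The tested neutrophil probes stood for 9 genes, but the tested red cell probes for only 3. In RNA from whole tubes, fewer cells of a type and less RNA per cell cannot be told apart.

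Of the 126 probes, 65 were tested, for 40 genes, and 60 of them were above background on all 6 arrays. Another 46 probes were above background on none. The probes of muscle-type genes were largely in that state. Of 20 myosin heavy chain probes 15 were at background on every array and 4 were tested, for *Myh9*, *Myh10* and *Myh8*. No probe was tested for the skeletal and cardiac actins *Acta1* and *Actc1*, the sarcomeric actinins *Actn2* and *Actn3*, the muscle myosin heavy chains *Myh1*, *Myh2*, *Myh3*, *Myh4*, *Myh6* and *Myh7*, the muscle light chains *Myl1*, *Myl2*, *Myl3* and *Myl7*, or the smooth muscle genes *Myh11* and *Cnn1*. Of 21 probes for other skeletal muscle genes, 11 were at background on all arrays, among them the probes of *Ckm* and *Neb*, and no probe of *Ttn* or *Mb* was above background on more than 1 array. Of the 6 tested, 1 was lower with PTH, for the muscle cytochrome c oxidase subunit *Cox6a2* (-1.11, adjusted p = 0.0468). The remaining genes with no tested probe were *Actg1*, *Actr2*, *Actr6*, *Actr8*, *Myh14*, *Tagln3*, *Tuba4*, *Tuba8*, *Tubb1*, *Tubb2*, *Tubb3* and *Tubb4*. Nearly all cells use *Actg1*, cytoplasmic gamma-actin, and *Actr2*, a core subunit of the Arp2/3 complex. Whether any of these probes fails to read its transcript was not tested.

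**Figure D1:**
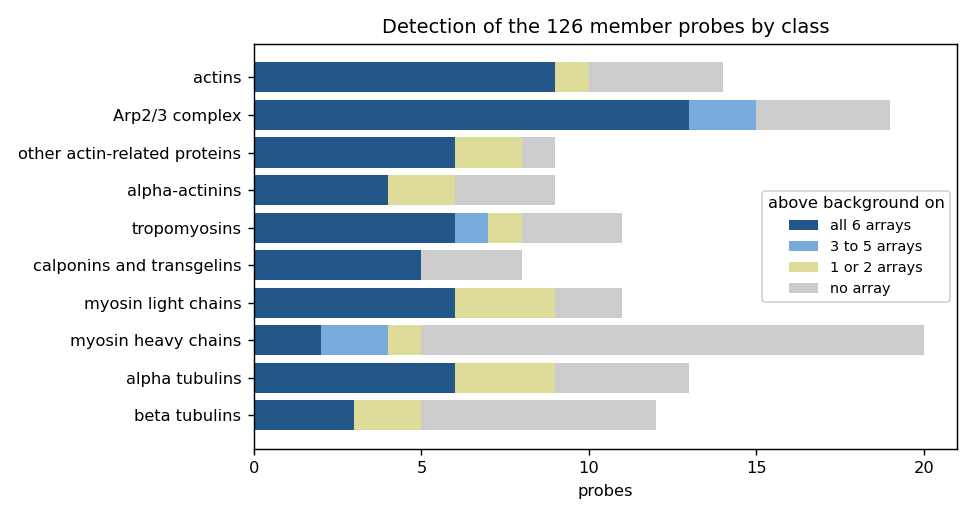
Number of member probes in each of the 10 classes (x axis: probes) by the number of arrays on which they were above background (colours). All 9 tested actin probes were above background on 6 arrays, while 15 of 20 myosin heavy chain probes were above background on no array.

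Of the 65 tested probes, 2 were lower with PTH and 0 were higher, and both belong to *Actb*. Over all tested probes 1.61% were called, 0.617% higher and 0.993% lower. At an unadjusted p under 0.05 there were 12 member probes, 4 higher and 8 lower, while 14.6% of all probes reached that level. The median change of the member probes was -0.016 on the log2 scale and that of all tested probes was 0.004. Changes within 0.25 of zero were seen for 47 member probes, or 72.3%, and for 67.2% of all probes. The PTH arrays all lay below the control arrays for 15 of the 65 member probes and all above for 7. Over all 16214 tested probes these counts were 1703 (10.5%) and 1664 (10.3%). Without *Actb* they were 11 and 7 of 60 member probes. Whether the members differ from all probes in this was not tested. Arrays scaled to a common median in place of quantiles moved the median of all probes to 0.11, and the signs of 15 member changes, each under 0.25 in size, turned over. That scaling also changed the share of higher ones among all called probes from 38.3% to 55.8%.

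**Figure D2:**
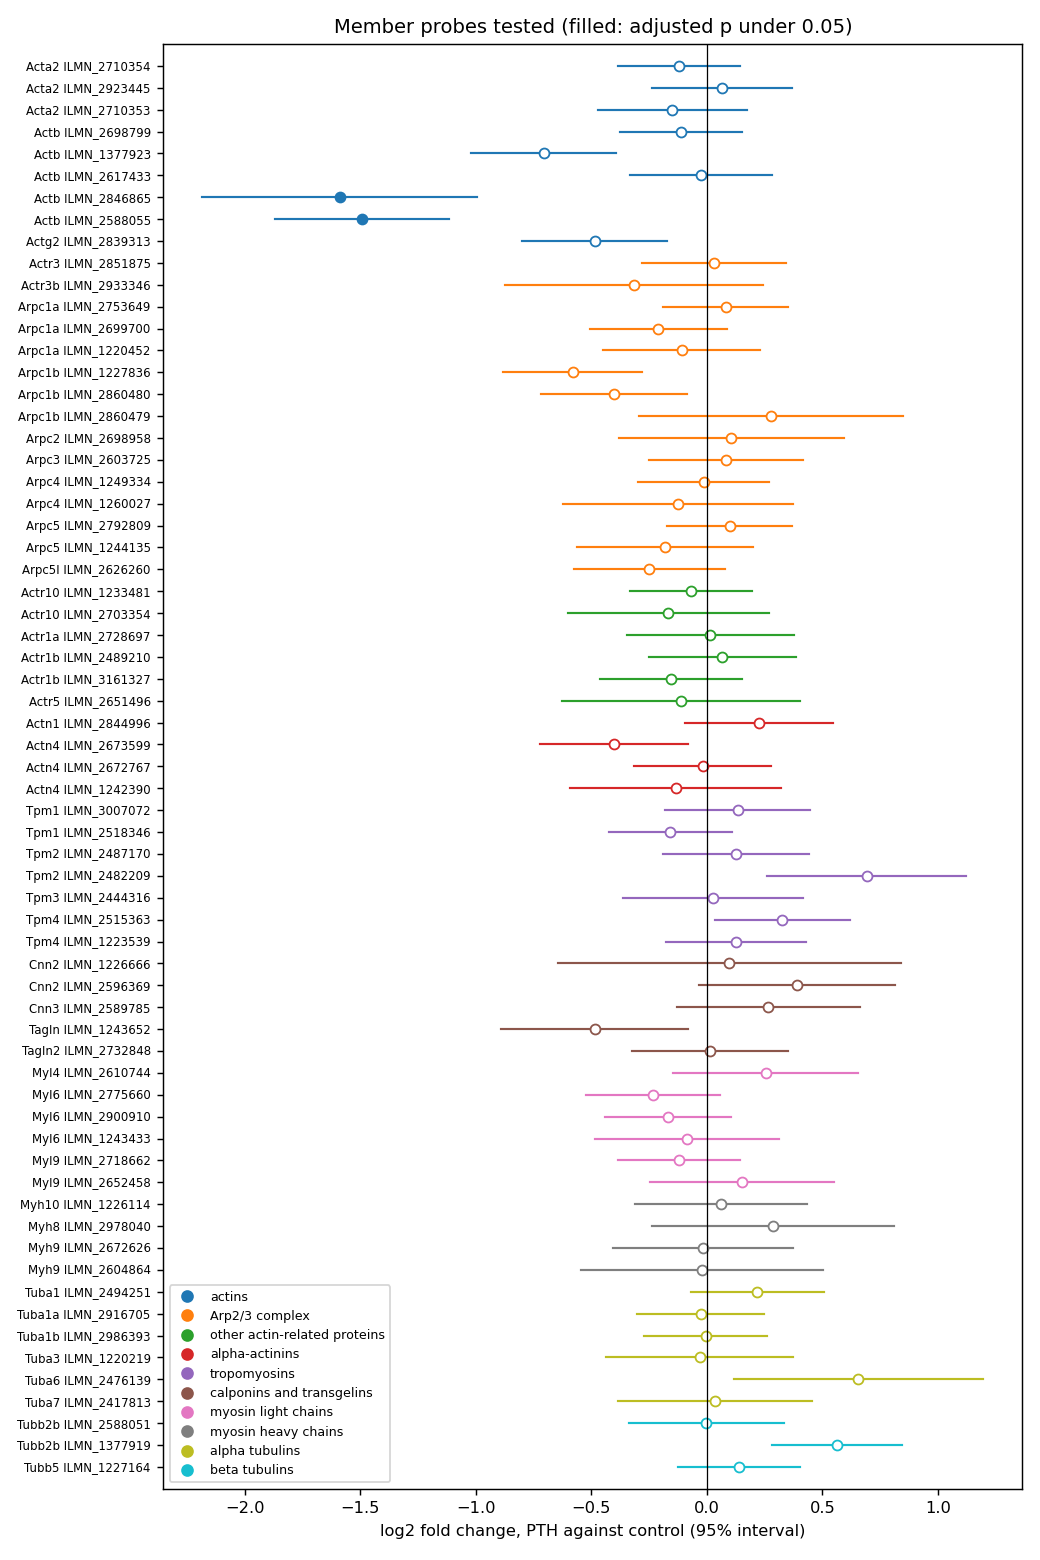
Log2 fold change of the 65 tested probes, PTH against control, with the 95% interval of limma's fit (lines), coloured by class; filled points were called at an adjusted p under 0.05. The filled points are the *Actb* probes at -1.59 and -1.49, and the other points lie between -0.71 and 0.69.

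The 5 *Actb* probes did not move together. With PTH the signal of the 2 dimmest fell by 2.81-fold and 3.01-fold, that of 1 bright probe was 1.63-fold lower without passing the test, and those of the other 2 lay close to the control level. Probe ILMN_2588055 read 10.94, 10.70 and 10.78 without the hormone and 9.62, 9.15 and 9.18 with it. Its level was 2.81-fold lower with PTH, a log2 change of -1.49 (SE 0.16, adjusted p = 0.00693). Probe ILMN_2846865 read 11.16, 11.17 and 10.91 against 10.10, 9.06 and 9.32, and was 3.01-fold lower, a log2 change of -1.59 (SE 0.26, adjusted p = 0.0282). All PTH arrays lay well below all control arrays on both probes. The call of ILMN_2588055 held with any 1 array left out (adjusted p 0.00789 to 0.0421). That of ILMN_2846865 was lost in 5 of the 6 such fits (adjusted p 0.0075 to 0.110) and held only without PTH replicate 1, the highest of its PTH arrays, and it was also lost with no filter on dim probes (adjusted p = 0.0618).

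Probe ILMN_1377923 read 14.60, 14.56 and 14.77 on the control arrays and 14.11, 13.83 and 13.87 with PTH, a log2 change of -0.71 (SE 0.14, adjusted p = 0.0518). Its groups did not overlap either, and it passed the test under 4 alternative settings, cyclic loess among them (adjusted p = 0.0338). On all 3 of these probes PTH replicate 1 was the highest PTH array and PTH replicate 2 the lowest. Probe ILMN_2698799, the brightest of the gene, read 14.70, 14.71 and 14.60 against 14.54, 14.57 and 14.56, a change of -0.11 with a 95% interval of -0.37 to 0.15. Probe ILMN_2617433 read 12.78, 12.85 and 12.60 against 12.85, 12.67 and 12.63, a change of -0.03 with an interval of -0.33 to 0.28, and its groups overlapped.

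**Figure D3:**
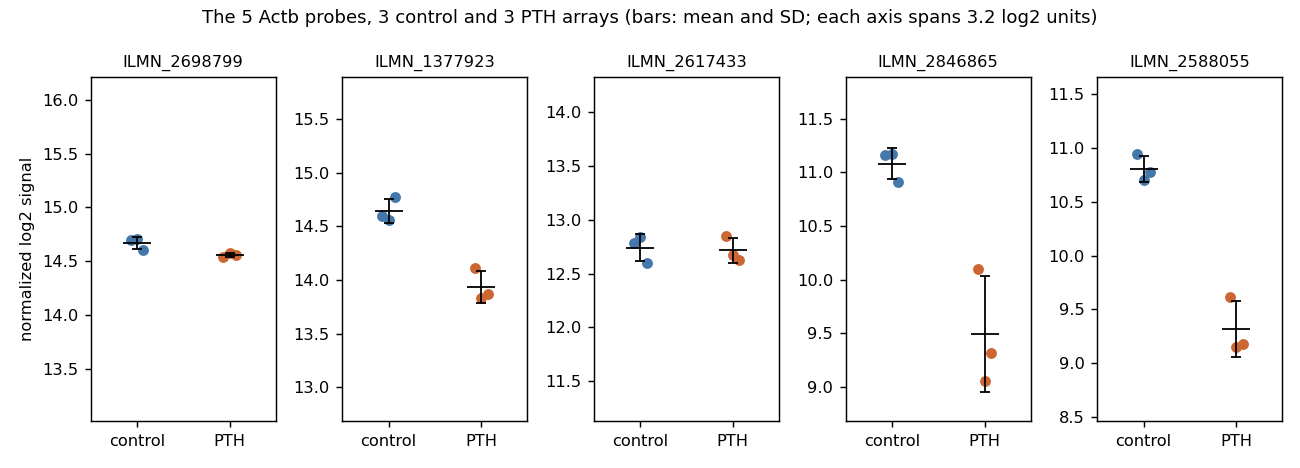
Normalized log2 signal of the 5 *Actb* probes on the 3 control and 3 PTH arrays (points), with the mean and SD of each group (bars); each panel has its own axis of the same length. Probes ILMN_2846865 and ILMN_2588055 fell by 1.59 and 1.49, ILMN_1377923 differed by -0.71, and ILMN_2698799 and ILMN_2617433 by -0.11 and -0.03.

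The same split stood in the deposited signals, before any normalization. For ILMN_2846865 they were 1943, 2371 and 1991 in control tubes and 976, 647 and 992 with PTH, and for ILMN_2588055 they were 1671, 1740 and 1823 against 732, 677 and 915. For ILMN_2698799 they were 22583, 27181 and 24008 against 20810, 24715 and 30692, and the groups overlapped. Within single arrays, the log2 difference of ILMN_2588055 from ILMN_2698799 was -3.86 ± 0.13 (SD, n = 3) in control tubes and -5.24 ± 0.28 with PTH. The groups did not overlap, and the exact two-sided permutation p was 0.1, the smallest that 3 against 3 arrays allow. Such pairs were compared only in the 9 of 17 genes whose probes differed in sign or were called in part, so they were chosen for disagreeing, and their differences are a description. Among the 10 pairs of *Actb*, the groups overlapped for ILMN_2846865 with ILMN_2588055, whose changes differed by 0.10, and ILMN_2698799 with ILMN_2617433, whose changes differed by 0.09.

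Across the array, 3132 genes had at least 2 tested probes. The gap between the largest and the smallest change among the probes of a gene was 1.56 for *Actb*, the widest of all 3132. The next was 1.52, for the haemoglobin gene *Hbb-b1*, the median was 0.233 and the 95th percentile was 0.72, and 0.798% of genes had a gap over 1. Genes with 5 or more tested probes, of which there were 26, had a median gap of 0.523. limma's F test asked whether the probes of a gene differ in their change, and was chosen after the values had been seen. It called 4 genes, or 0.128%, and *Actb* was among them (adjusted p = 0.000884). The test takes the probes of a gene as independent, though all were read on the same arrays, so its p may be too small. The *Actb* call was lost without control replicate 1 (adjusted p = 0.106) and with median scaling (adjusted p = 0.0688). Of the single probes, ILMN_2846865 differed from the other *Actb* probes by -1.01 (adjusted p = 0.0494), where 0.0543% of probes on the array were called. None of the other 16 member genes with more than 1 tested probe passed the F test, and their adjusted p-values ran from 0.458 to 0.996.

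**Figure D4:**
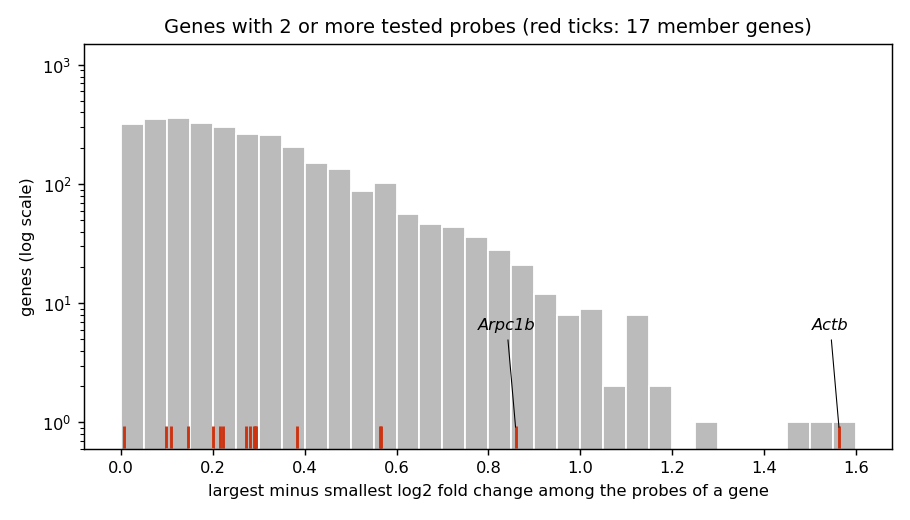
Histogram of the gap between the largest and smallest log2 fold change among the tested probes of a gene (x axis), for 3132 genes (y axis: genes, log scale), with the 17 member genes as red ticks. *Actb* stands at 1.56, at the right end, *Arpc1b* at 0.86, and the median of all genes is 0.233.

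A single value for *Actb* depended on the probe or rule that stood for it. By its brightest probe the change was -0.11 (adjusted p = 0.721). With the mean of its 5 probes it was -0.79 (SE 0.13), which passed the test at an adjusted p of 0.0304. Sequences of the probes were not used here, and which part or isoform of the transcript, or which related actin sequence, each one reads was not tested.

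No probe of the other actins passed the test. *Acta2*, smooth muscle alpha-actin, was well above background, and its 3 tested probes stayed near zero. Probe ILMN_2710354 read 12.22, 12.29 and 12.35 in control tubes and 12.13, 12.17 and 12.20 with PTH, a change of -0.12. Probe ILMN_2710353 read 11.25, 11.21 and 11.59 against 11.20, 11.21 and 11.19, a change of -0.15. Probe ILMN_2923445, the only actin probe with a positive change, read 11.92, 12.06 and 11.84 against 12.11, 12.04 and 11.86, a change of 0.07. The PTH arrays lay just below the control arrays on the first and second of these and overlapped them on the last. *Actg2*, enteric smooth muscle gamma-actin, read 9.93, 10.15 and 9.93 against 9.53, 9.37 and 9.64, with no overlap, a change of -0.49 (SE 0.13, adjusted p = 0.149). With quantile normalization alone the *Actg2* probe was called.

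Within the Arp2/3 complex, 15 probes of 9 genes were tested, 0 were called, and the median change was -0.11. The brightest, *Arpc5* ILMN_2792809, for the smallest subunit, read 12.56, 12.62 and 12.50 in control tubes and 12.72, 12.58 and 12.68 with PTH (0.10), and the other tested *Arpc5* probe read 10.48, 10.33 and 10.12 against 10.35, 10.15 and 9.89 (-0.18). Both overlapped between groups. *Arpc1b*, a gene for the WD-repeat subunit, known for its role in blood cells, held both extremes of the class. Probe ILMN_1227836 read 10.52, 10.37 and 10.33 against 9.80, 9.96 and 9.71, a change of -0.58 (SE 0.13, adjusted p = 0.0823). Probe ILMN_2860480 read 10.32, 10.43 and 10.23 against 10.12, 9.80 and 9.86, a change of -0.40 (SE 0.14, adjusted p = 0.227). All PTH arrays lay below all control arrays on these probes. Probe ILMN_2860479, with a far wider spread, read 9.28, 9.43 and 10.13 against 9.85, 9.64 and 10.19, a change of 0.28 (SE 0.25, adjusted p = 0.675), and its groups overlapped. ILMN_1227836 was called under 3 of the alternative settings, quantile normalization alone, an offset of 50 and a stricter filter on dim probes. ILMN_2860480 was called with quantile normalization alone.

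The paralog *Arpc1a* stayed near zero on its 3 tested probes. Probe ILMN_2753649 read 9.77, 9.73 and 9.73 in control tubes and 9.81, 9.92 and 9.74 with PTH (0.08), ILMN_2699700 read 9.62, 9.62 and 9.37 against 9.40, 9.29 and 9.30 (-0.21), and ILMN_1220452 read 9.24, 9.53 and 9.37 against 9.27, 9.45 and 9.09 (-0.11). All 3 overlapped between groups. The probes of *Actr3*, *Actr3b*, *Arpc2*, *Arpc3*, *Arpc4* and *Arpc5l* had changes between -0.32 and 0.11, with overlap on each.

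The other actin-related proteins, of dynactin (*Actr1a*, *Actr1b*, *Actr10*) and of a nuclear chromatin remodelling complex (*Actr5*), had 6 tested probes, all with changes within 0.17 of zero and all with overlapping groups. *Actr1a*, whose product forms the dynactin filament, read 11.26, 11.05 and 10.75 in control tubes and 11.05, 11.10 and 10.95 with PTH (0.01). The probes of its paralog *Actr1b* read 9.19, 9.45 and 9.35 against 9.43, 9.52 and 9.24 (0.07) and 7.70, 7.96 and 7.97 against 7.67, 7.83 and 7.67 (-0.16). The lowest change of the class was that of *Actr10* ILMN_2703354, which read 5.31, 5.71 and 5.86 against 5.23, 5.45 and 5.69 (-0.17).

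Neither nonmuscle alpha-actinin, crosslinkers of actin filaments, passed the test. *Actn1* read 12.20, 12.52 and 12.52 in control tubes and 12.58, 12.61 and 12.72 with PTH, every PTH array above every control array, a change of 0.23 (SE 0.14, adjusted p = 0.518). *Actn4* ILMN_2673599 read 10.75, 10.49 and 10.51 against 10.07, 10.34 and 10.13, every PTH array below, a change of -0.40 (SE 0.14, adjusted p = 0.230). With quantile normalization alone this *Actn4* probe was called. The other *Actn4* probes changed by -0.02 and -0.14 and overlapped.

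Tropomyosins had 7 tested probes, 6 with a change above 0 and a class median of 0.13, but 0 were called. The brightest, *Tpm1* ILMN_3007072, read 13.44, 13.41 and 13.13 in control tubes and 13.44, 13.55 and 13.39 with PTH (0.13, overlapping). The other *Tpm1* probe, ILMN_2518346, was the one with a negative change and read 12.24, 12.21 and 12.19 against 11.97, 12.09 and 12.09 (-0.16, no overlap). The 2 *Tpm1* probes differed in their change by 0.29, which did not pass the F test over all genes (adjusted p = 0.718). The highest change was that of *Tpm2* ILMN_2482209, a dim probe above background on 1 control and 3 PTH arrays, which read 4.70, 4.75 and 5.01 against 5.46, 5.85 and 5.22, with no overlap (0.69, SE 0.19, adjusted p = 0.136). The bright *Tpm2* probe, ILMN_2487170, changed by 0.13 and overlapped. *Tpm4* ILMN_2515363 read 12.92, 13.00 and 12.77 against 13.31, 13.22 and 13.13, all PTH arrays above all control arrays, a change of 0.33 (SE 0.13, adjusted p = 0.283), and the second *Tpm4* probe changed by 0.13 with overlap.

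Calponins and transgelins, which bind actin filaments and are best known from smooth muscle, had 5 tested probes and 0 called. *Tagln2*, the brightest, read 12.88, 12.96 and 12.65 in control tubes and 12.95, 12.92 and 12.65 with PTH (0.01). *Tagln*, the smooth muscle marker SM22, read 8.13, 7.73 and 7.98 against 7.19, 7.71 and 7.48, with no overlap (-0.49, SE 0.18, adjusted p = 0.252). *Cnn2* ILMN_2596369 read 7.01, 6.85 and 6.69 against 6.98, 7.15 and 7.59 (0.39, SE 0.18, adjusted p = 0.384), overlapping through PTH replicate 1. The other *Cnn2* probe and that of *Cnn3* changed by 0.10 and 0.27 and overlapped. Of 13 tested probes for other smooth muscle and pericyte genes 0 were called, and *Myocd*, *Lmod1*, *Synpo2* and *Pln* had no tested probe.

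Myosin light chains had 6 tested probes and 0 called. *Myl6*, the essential light chain of nonmuscle and smooth muscle myosin, gave the brightest probe and the lowest change: ILMN_2775660 read 14.04, 14.05 and 13.92 in control tubes and 13.73, 13.91 and 13.67 with PTH (-0.23, SE 0.13, adjusted p = 0.451). All PTH arrays lay below all control arrays on this probe, but only narrowly. The other *Myl6* probes changed by -0.17 and -0.09. *Myl9*, the regulatory light chain that myosin light chain kinase phosphorylates, read 10.19, 10.22 and 10.22 against 10.10, 10.15 and 10.03 on ILMN_2718662 (-0.12, no overlap) and 7.62, 7.69 and 7.94 against 7.92, 7.63 and 8.16 on ILMN_2652458 (0.15, overlapping). The highest change was that of *Myl4*, an atrial and embryonic light chain, which read 6.65, 6.61 and 6.55 against 7.08, 7.0 and 6.49 (0.25, SE 0.17), PTH replicate 3 lying below all control arrays.

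Myosin heavy chains had 4 tested probes, none with separated groups. *Myh9*, nonmuscle myosin IIA, read 11.19, 11.02 and 11.49 in control tubes and 11.00, 11.31 and 11.35 with PTH on ILMN_2672626 (-0.02, SE 0.17) and 5.62, 4.73 and 4.99 against 5.08, 4.96 and 5.22 on the dim ILMN_2604864 (-0.02). *Myh10*, nonmuscle myosin IIB, changed by 0.06. *Myh8*, the perinatal skeletal muscle chain, read 4.78, 5.13 and 4.49 against 5.23, 5.35 and 4.68 (0.29, SE 0.23), on a probe that was above background on 1 control and 2 PTH arrays.

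Alpha tubulins had 6 tested probes, each with its own symbol, and 0 called. The brightest, *Tuba1b*, read 14.45, 14.49 and 14.36 in control tubes and 14.39, 14.47 and 14.41 with PTH, a change of -0.01 with a 95% interval of -0.27 to 0.26. *Tuba6*, now named *Tuba1c*, read 10.54, 11.00 and 11.10 against 11.40, 11.22 and 11.99, with all PTH arrays above all control arrays (0.66, SE 0.23, adjusted p = 0.247). It was called with quantile normalization alone. The lowest change was that of *Tuba3*, now *Tuba3a*, which read 6.54, 6.76 and 6.96 against 6.47, 6.98 and 6.72 (-0.03). The symbols *Tuba1* and *Tuba1a* both stand for the present *Tuba1a*, and their probes changed by 0.22 and -0.03. Alpha tubulin genes are close copies of each other, and whether a probe reads more than one of them was not tested.

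Beta tubulins had 3 tested probes and 0 called. The brightest, *Tubb5*, the most widely expressed beta tubulin, read 14.42, 14.42 and 14.41 in control tubes and 14.61, 14.58 and 14.47 with PTH, every PTH array above every control array, a change of 0.14 (SE 0.11, adjusted p = 0.648). *Tubb2b*, best known from neurons, held the highest and the lowest change. Probe ILMN_1377919 read 7.94, 8.17 and 8.02 against 8.63, 8.59 and 8.60, with a clear gap between the groups (0.56, SE 0.12, adjusted p = 0.0762), and was called with quantile normalization alone, an offset of 50 or a stricter filter on dim probes. Probe ILMN_2588051 read 9.81, 9.63 and 9.69 against 9.65, 9.53 and 9.93, a change of -0.003 with a 95% interval of -0.34 to 0.33. The changes of the 2 tested *Tubb2b* probes differed by 0.56, which did not pass the F test over all genes (adjusted p = 0.458).

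One sequence feature that the choice of genes did not use is the CArG box, the binding motif of serum response factor (SRF), which drives many actin and myosin genes. It was searched by name in RefSeq promoter windows of GRCm38.p6, from 250 bases before to 50 after each start site; the motif is its own reverse complement in form, so 1 search covers both strands. Only its exact form was searched: CC, then only A or T, then GG, 10 bases in all. A near match counted as none: the *Acta2* window holds ccctatatgg and ccttgtttgg, each 1 base off that form. Of 62 windows for 57 member genes 10 held the exact form, or 16.1%, against 1.63% of all 32851 windows. The 10 genes that held it were *Acta1*, *Actc1*, *Actg1*, *Arpc4*, *Cnn2*, *Myh4*, *Myl3*, *Myl6*, *Myl7* and *Myl9*. The windows of the 4 that had tested probes are shown in order to place the motif, which is in capitals; those of *Myl6* and *Cnn2* hold it 50 and 56 bases before the start site. *Myl6* has a second window, chr10:128493837-128494136, which does not hold it and is not printed.
*Myl9*, chr2:156775214-156775513, plus strand: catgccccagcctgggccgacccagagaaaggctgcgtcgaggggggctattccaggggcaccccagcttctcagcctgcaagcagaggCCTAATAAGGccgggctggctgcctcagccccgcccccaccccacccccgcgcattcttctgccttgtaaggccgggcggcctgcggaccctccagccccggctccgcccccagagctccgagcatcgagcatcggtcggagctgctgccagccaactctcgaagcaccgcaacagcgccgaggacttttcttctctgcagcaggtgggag
*Myl6*, chr10:128492960-128493259, minus strand: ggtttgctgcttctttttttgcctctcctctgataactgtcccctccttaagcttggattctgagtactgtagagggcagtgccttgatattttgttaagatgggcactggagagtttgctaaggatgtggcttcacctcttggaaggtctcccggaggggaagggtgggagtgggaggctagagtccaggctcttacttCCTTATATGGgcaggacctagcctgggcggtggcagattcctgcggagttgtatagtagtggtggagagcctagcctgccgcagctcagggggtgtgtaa
*Cnn2*, chr10:79988350-79988649, plus strand: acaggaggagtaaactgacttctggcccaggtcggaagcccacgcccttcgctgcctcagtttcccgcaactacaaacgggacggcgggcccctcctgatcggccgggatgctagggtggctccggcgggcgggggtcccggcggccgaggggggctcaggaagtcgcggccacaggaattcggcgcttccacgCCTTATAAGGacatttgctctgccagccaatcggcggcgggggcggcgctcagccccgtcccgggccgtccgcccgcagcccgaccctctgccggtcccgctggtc
*Arpc4*, chr6:113377863-113378162, plus strand: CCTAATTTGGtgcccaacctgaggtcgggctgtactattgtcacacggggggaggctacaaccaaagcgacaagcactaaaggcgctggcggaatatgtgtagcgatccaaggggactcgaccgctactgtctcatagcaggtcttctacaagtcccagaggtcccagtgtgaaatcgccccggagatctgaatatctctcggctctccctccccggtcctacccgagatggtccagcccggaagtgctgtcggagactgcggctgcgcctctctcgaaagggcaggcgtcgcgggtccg
The tested probes of these 4 genes changed by -0.23 to 0.39 with PTH and none was called. The windows of *Actb* and *Tagln* were not analysed here, and a match describes the letters of a window, not a site in use.

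Other genes of these pathways were described from lists. Of 93 tested probes for actin filament regulators, 1 was lower and 0 were higher, with a median change of 0.009. The called probe belongs to *Coro1a*, an actin-binding coronin best known from leukocytes. Probe ILMN_2787257 read 9.56, 9.61 and 9.27 in control tubes and 8.72, 8.73 and 8.54 with PTH, with no overlap (-0.81, adjusted p = 0.0359). The other 3 *Coro1a* probes changed by -0.59, -0.58 and -0.85 and were not called, the last being the lowest change in the list. With 1 array left out the adjusted p was 0.0479 to 0.137, and the call held only without control replicate 3. It was also lost with median scaling (adjusted p = 0.532) and with no filter on dim probes (adjusted p = 0.0541). The highest change in the list was that of *Cald1*, caldesmon, at 0.76 (SE 0.26, adjusted p = 0.232).

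*Mylk*, myosin light chain kinase, had 1 of its 3 tested probes called lower. Probe ILMN_1218347 read 10.23, 10.03 and 10.10 in control tubes and 9.26, 9.40 and 9.42 with PTH, all PTH arrays well below all control arrays (-0.76, SE 0.12, adjusted p = 0.0293). The other *Mylk* probes changed by -0.61 (adjusted p = 0.0742) and -0.54 (adjusted p = 0.185), also without overlap. The call was lost with any 1 array left out (adjusted p 0.0614 to 0.124) and with median scaling (adjusted p = 0.645). *Srf* itself changed by 0.14 and -0.30 on its 2 tested probes. Of 40 tested probes for tubulin folding and microtubule binding 0 were called, with a median of -0.011 and extremes of -0.76 for *Mtap4* and 0.57 for *Map1lc3b*.

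**Figure D5:**
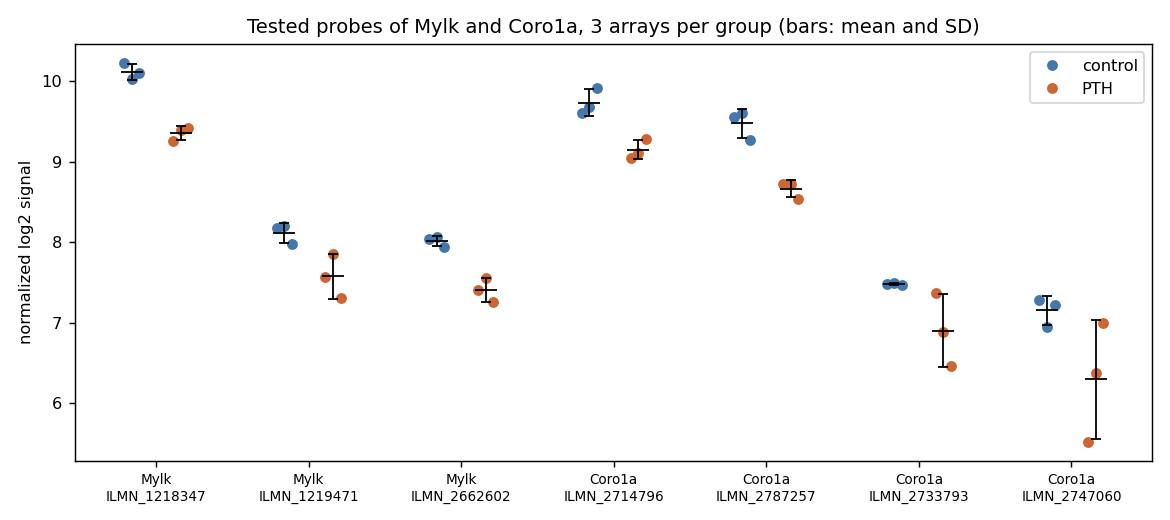
Normalized log2 signal of the 3 *Mylk* and 4 *Coro1a* probes tested on 3 control and 3 PTH arrays (points), with the mean and SD of each group (bars). The group means of all 7 probes are lower with PTH, by 0.54 to 0.85, and ILMN_1218347 and ILMN_2787257 were called.

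Markers of other cells moved over the same arrays. Of 13 tested neutrophil probes 9 were lower with PTH (median change -0.85), and of 12 tested red cell probes 10 were lower (median -1.84). The called neutrophil probes belonged to 6 genes, and the called red cell probes to 2 of the 3 red cell genes tested. Another 6 red cell genes had no tested probe. Megakaryocyte and platelet probes had a median of -0.41 with 0 of 10 called, and of 5 osteoclast probes 3 were higher (median 0.84). Of 12 osteoblast probes 4 were lower, for 2 genes (median -0.53). Of 6 osteocyte probes 1 was called lower, with 5 changes below 0 and 1 above (median -0.95, range -1.21 to 0.70). For macrophages the median was -0.036 with 0 of 11 called, and for endothelium it was -0.33 with 0 of 8 called. The probes for proliferating cells had a median of 0.16 with 0 of 14 called. The part of these shifts in the changes of *Actb*, *Arpc1b*, *Coro1a* and *Mylk* was not tested.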

How the data were processed

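RNA of 6 bone tube preparations, 3 for control and 3 for PTH as the sample labels give them, was read on Illumina mouse bead arrays. The authors deposited the linear signal intensity of each probe, not normalized, with a detection p-value per probe and array from GenomeStudio, all of which were used. The array's genome build is not given in the sources used here.

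Signals were background corrected by normexp through the detection p-values, given an offset of 16, quantile normalized and taken to log2 with neqc (limma 3.58.1, R 4.3.3). Probes with a detection p under 0.05 on at least 3 arrays were tested by lmFit and eBayes, and p-values were adjusted over 16214 probes after Benjamini and Hochberg. Probes of a gene were compared by exact permutation over arrays (where called in part or different in sign) and by diffSplice, the latter added after the data were seen, as were the counts by brightest probe and by mean. The procedure was tested on simulated data.

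Members, gene lists and markers were chosen with earlier results of these data known. Array values are given for called probes, for probes of a gene that were called in part or differed in sign, and for the highest, lowest and brightest probe of each class; of the lists, called genes and extremes are named. One list is not reported here as a whole, and *Mylk* and *Srf* are its only genes given. *Tpm4*, *Srf*, *Hbb-b1* and the other uncalled probes and untested genes named beside them were chosen after their values were seen. The RefSeq gene table of GRCm38.p6 matched 61 member symbols directly and 7 as older names. Alternatives were quantile normalization alone, an offset of 50, median scaling, cyclic loess, other detection filters and a block for the replicate number. Others left out single arrays or used an equal-variance t-test on the same values. The paper's methods name a Student's t-test for comparing a pair of groups, but its arrays were scored by GenomeStudio instead.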

Additional observations from a re-analysis of the deposited data

How the results depend on the processing

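The count of member probes called higher was 0, and became 2 with quantile normalization alone, 1 with an offset of 50, 1 with a detection p under 0.01 on all arrays and 5 by the methods' t-test without adjustment. The count called lower was 2, and became 7, 4 and 4 under the first 3 of these, 13 by that t-test without adjustment and 0 after it, 1 with no detection filter, 1 to 2 with 1 array left out, 0 with the brightest probe per gene and 1 with the mean of its probes. All probes called numbered 261 of 16214, 725 with quantile normalization alone and 502 with an offset of 50. The stricter filter on dim probes gave 422 of 11294. No count over all probes is given for the t-test without adjustment. Its 5 higher and 13 lower member probes therefore cannot be read as a result particular to these genes. With the replicate number as a block, the count called lower was 1, the count called higher 0 and all called probes 64. The calls of *Actb* ILMN_2846865 (adjusted p = 0.0668), *Coro1a* (adjusted p = 0.0691) and *Mylk* (adjusted p = 0.0935) were lost. Deviations of same-numbered control and PTH arrays correlated at 0.07, 0.06 and 0.27 for replicates 1, 2 and 3. The highest correlation of each control array with a PTH array of another number was 0.07, 0.07 and -0.13. In both groups the share of probes above background rose from replicate 1 to replicate 3. The labels do not say whether same-numbered arrays share a batch or a set of mice, and this was not tested. The test that *Actb* probes differ gave an adjusted p of 0.0688 with median scaling and of 1.94e-06 to 0.106 with 1 array left out. The median change of the members moved to 0.13 with median scaling. Of 938 comparisons of a result with an alternative, 896 stayed the same, 9 lost the threshold, 14 gained it and 19 moved. A call was the same if it kept its side of the threshold, even where an uncalled change turned its sign. A median or difference was the same if it stayed within the spread. As 63 of the 65 tested member probes were uncalled, this total says little about the called ones. A count of calls was judged by a set ratio to the main count, and most of the 19 were such counts. No called change turned its sign, but uncalled changes of at most 0.16 in size did so 61 times, 15 of them with median scaling, 3 with cyclic loess and the rest with 1 array left out. The causes were not tested. The number of arrays, and for dim probes a signal close to background, limits the precision.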
